A study of Mus musculus with 2 samples.

Results

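The genes of the mitochondrial genome were described in a Drop-seq series of newborn mouse lung. Members were all rows of the 2 deposited count matrices whose symbol starts with mt-, and they were followed in all deposited cells. They numbered 37 of 27254 genes, with 37 rows among 25721 in Batch 2 and 35 among 23977 in Batch 1, where mt-Tr and mt-Ts2 had no row. All 37 symbols lie on the mitochondrial chromosome in the GENCODE vM21 annotation of mm10, which gives 13 messenger RNAs, 2 ribosomal RNAs and 22 transfer RNAs. Drop-seq captures the RNA of single cells on barcoded beads that carry oligo-dT primers, and counts unique molecular identifiers (UMIs). Each batch was the whole lung of a single wild type (wt) female C57BL/6J mouse at postnatal day 1 (PND1), so n = 2 throughout, with no treatment and no second genotype. Batch 1 held 2389 cells with a median of 1387 UMIs, Batch 2 held 7555 cells with a median of 1999 UMIs, and the batches shared 0 cell barcodes.

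Cells were clustered within each batch without the mt- genes, and clusters were given a lineage from marker genes. In the epithelial-like lineage were 328 cells of Batch 1 and 2072 of Batch 2. The endothelial-like lineage held 569 and 1888 cells, the mesenchymal-like lineage 1155 and 2474, and the immune-like lineage 117 and 809. In each lineage the summed markers of that lineage stood above those of the other 3 lineages in both batches, but immune markers, among them the lysozyme gene Lyz2, reached 25.3 UMIs per 10000 in the epithelial-like cells of Batch 1 against 43.5 for the epithelial markers. Of 1931 Batch 1 cells that the study lists by lineage, 1769 (91.6%) fell in the same lineage here, 12 in another of the 4, and 150 in clusters outside them. The share was lowest for immune cells, at 91 of 137 (66.4%), with 46 outside the 4 lineages, against 92.6% to 97.9% for the other lineages. The immune-like lineage was not made of the same cells in both batches. In Batch 1 a cluster led by S100a8 and Stfa1, genes of neutrophils, held 71 of 117 immune-like cells, and in Batch 2 macrophage-like clusters held 506 of 809.

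Mitochondria carry a small circular genome whose strands are transcribed as long precursors that are then cut into ribosomal, messenger and transfer RNAs, with transfer RNAs often lying between the other genes. All of the encoded proteins are subunits of the respiratory chain and ATP synthase, and the ribosomal and transfer RNAs serve the translation of those proteins inside the organelle. Mitochondrial messenger RNAs carry short poly(A) tails, and the share of mitochondrial UMIs in a cell is in common use as a measure of cell quality.

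The sequences of the members on which the results turned are given 5′ to 3′ from the GENCODE vM21 transcripts (GRCm38, the assembly called mm10). The large ribosomal RNA mt-Rnr2 (chrM:1094-2675, plus strand, 1582 bases) had the largest ratio between the batches among members with at least 20 UMIs in each. It holds 4 runs of 6 or more A, 3 of which lie in the stretch from base 341 to base 490 (chrM:1434-1583), where capitals mark those runs.
mt-Rnr2, bases 341 to 490: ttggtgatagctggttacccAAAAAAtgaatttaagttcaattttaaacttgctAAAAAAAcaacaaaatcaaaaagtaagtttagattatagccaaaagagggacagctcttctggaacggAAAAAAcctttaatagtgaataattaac
On the sense strand AAAAAA occurred in the first 1582 bases of 38.7% of the 52044 annotated transcripts of at least that length, and AAAAAAA, which contains it, in 18.8%. The complement TTTTTT occurred in 34.7% of them and in mt-Rnr2 had 0 matches. The small ribosomal RNA mt-Rnr1 (chrM:70-1024, plus strand) has no run longer than 5 A.

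The transfer RNAs shown next are those for aspartate and tyrosine, which were lower in Batch 2, and for valine, between the 2 ribosomal genes. The methionine, glutamine and tryptophan transfer RNAs follow. They were called higher in the immune-like lineage, but on only 4, 1 and 2 immune-like UMIs in Batch 1. Capitals mark runs of 4 or more A.
mt-Td, chrM:6942-7011, plus strand: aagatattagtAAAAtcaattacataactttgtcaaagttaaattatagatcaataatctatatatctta
mt-Ty, chrM:5260-5326, minus strand: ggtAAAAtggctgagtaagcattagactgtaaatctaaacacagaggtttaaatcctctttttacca
mt-Tv, chrM:1025-1093, plus strand: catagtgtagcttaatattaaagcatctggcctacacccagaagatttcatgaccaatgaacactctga
mt-Tm, chrM:3845-3913, plus strand: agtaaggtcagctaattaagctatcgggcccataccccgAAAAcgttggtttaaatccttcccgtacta
mt-Tq, chrM:3772-3842, minus strand: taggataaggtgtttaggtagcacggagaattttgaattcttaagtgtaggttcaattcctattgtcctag
mt-Tw, chrM:4950-5016, plus strand: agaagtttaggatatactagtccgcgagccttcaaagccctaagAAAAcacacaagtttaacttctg
mt-Td is the member richest in A, with 45.7% of its bases. mt-Tq and mt-Tm are neighbours on opposite strands between the messenger RNAs mt-Nd1 and mt-Nd2, and mt-Tw follows mt-Nd2.

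Mitochondrially encoded UMIs made up 1.84% of 4434206 UMIs in Batch 1 and 7.56% of 23263012 UMIs in Batch 2. The messenger RNAs were close in the 2 batches and the ribosomal RNAs were not. Over all cells the 13 messenger RNAs together gave 149.9 UMIs per 10000 UMIs in Batch 1 and 160.9 in Batch 2, the 2 ribosomal RNAs gave 27.0 and 591.7, and the 22 transfer RNAs gave 6.96 and 3.70. The messenger RNAs therefore filled 81.5% of mt- UMIs in Batch 1 and 21.3% in Batch 2, while the ribosomal RNAs filled 14.7% and 78.2%. With 1 mouse a batch, no test between batches was possible, and mouse, batch and library cannot be told apart. With every cell thinned to 500 UMIs the ratio of Batch 2 to Batch 1 was 1.10 for the messenger RNAs, against 1.07 before, so the values at equal depth were close to these. Shares by lineage are given without a test, since an exact test of paired lineages over 2 mice cannot go below p = 0.5.

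The same split was seen in every lineage. The mt- share of UMIs was 1.81% in Batch 1 and 7.67% in Batch 2 for epithelial-like cells (mean 4.74% ± 4.15, SD, n = 2), 1.85% and 6.99% for endothelial-like cells (4.42% ± 3.63), 2.01% and 7.57% for mesenchymal-like cells (4.79% ± 3.93), and 1.71% and 8.67% for immune-like cells (5.19% ± 4.92). The lineages of a batch thus lay much closer to each other than the batches did, and their order was not the same, as immune-like cells were lowest in Batch 1 and highest in Batch 2. Without the clusters led by neutrophil genes they were highest in both, at 2.38% and 9.39%.

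Messenger RNA filled 76.4% of mt- UMIs in the immune-like cells of Batch 1, 80.2% in epithelial-like, 80.8% in endothelial-like and 83.6% in mesenchymal-like cells. In Batch 2 the same order held at lower values of 14.5%, 19.7%, 24.5% and 24.7%. The endothelial-like and mesenchymal-like values of Batch 2 lay side by side, with exact binomial 95% intervals of 24.4% to 24.6% and 24.6% to 24.9% that cover counting error only. Without the cluster led by cardiac muscle genes the mesenchymal-like value of Batch 2 was 24.2%, under the endothelial-like one, and without cells with markers of 2 lineages the endothelial-like value of Batch 1 (78.7%) lay under the epithelial-like one (83.0%). Ribosomal RNA ran the other way and was highest in the immune-like cells of both batches, at 19.2% in Batch 1 and 85.0% in Batch 2, against 12.6% and 74.7% in the mesenchymal-like cells. Without the clusters led by neutrophil genes the immune-like cells of Batch 1 (46 cells) no longer stood apart, with 80.3% messenger and 15.6% ribosomal RNA, while those of Batch 2 (713 cells) stayed at 14.5% and 85.0%. Transfer RNA took 3.48% to 4.44% of mt- UMIs in the lineages of Batch 1 and 0.471% to 0.527% in those of Batch 2.

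**Figure D1:**
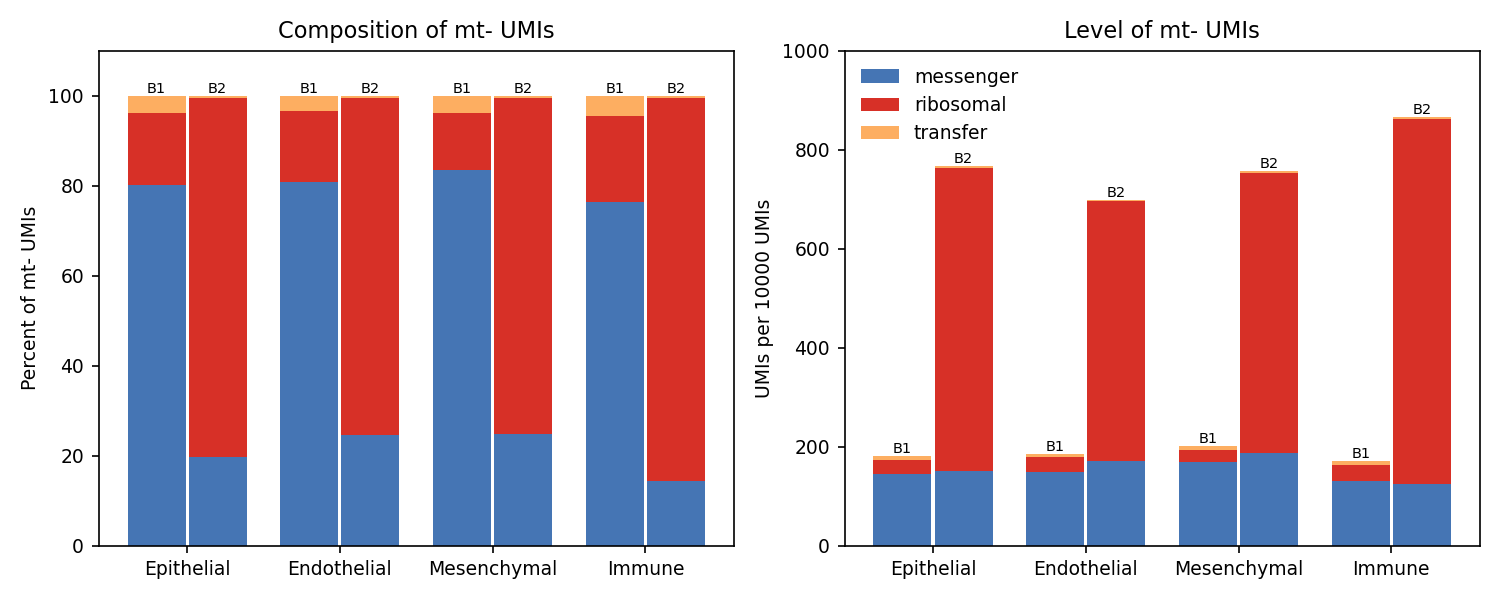
Messenger (blue), ribosomal (red) and transfer (orange) RNA by lineage in Batch 1 (B1) and Batch 2 (B2), as percent of mt- UMIs on the left and as UMIs per 10000 UMIs on the right. The blue bars keep nearly the same height in both batches on the right, from 125.4 to 187.4, while the red bars rise from 25.3 to 32.8 in Batch 1 to between 524.5 and 737.1 in Batch 2.

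Between the batches the difference sat in few members. mt-Rnr2 gave 25.7 UMIs per 10000 in Batch 1 and 583.3 in Batch 2, a ratio of 22.7, and 23.6 with every cell thinned to 500 UMIs. It gave 28.0 and 605.2 in epithelial-like, 28.0 and 516.8 in endothelial-like, 24.1 and 558.2 in mesenchymal-like and 30.9 and 719.1 in immune-like cells, so that the ratio was 18.4 to 23.3 and every lineage of Batch 2 lay above every lineage of Batch 1. mt-Rnr1 gave 1.23 and 8.44 UMIs per 10000 over all cells, a ratio of 6.88, and the lineage ratios ran from 6.33 to 9.58. There were 21.0 mt-Rnr2 UMIs for each mt-Rnr1 UMI in Batch 1 and 69.1 in Batch 2. Both ribosomal RNAs were higher in Batch 2, but mt-Rnr2 by the larger factor.

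Of the 13 messenger RNAs, 12 differed by less than 2-fold between the batches, with ratios of Batch 2 to Batch 1 from 0.81 for mt-Co2, a subunit of cytochrome c oxidase, to 1.80 for mt-Nd5, a subunit of complex I. The exception was mt-Atp8 of ATP synthase, at 0.81 and 1.76 UMIs per 10000. The most counted messenger RNA in both batches was mt-Co1, the catalytic subunit of cytochrome c oxidase, at 35.0 and 33.7 UMIs per 10000. Across the 13 messenger RNAs the levels of the batches had Pearson's r = 0.96 and Spearman's rho = 0.91, given as a description, since these genes share libraries and transcripts.

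Each UMI counts a molecule primed by oligo-dT, and such counts need not grow with gene length, so values per kilobase are a description only. Per kilobase of gene length, the highest messenger RNA was mt-Atp6 of ATP synthase, with 29.3 UMIs per 10000 per kb in Batch 1 and 27.1 in Batch 2. mt-Co3 and mt-Co1, also of cytochrome c oxidase, followed at 24.5 and 22.7 in Batch 1 and 22.6 and 21.8 in Batch 2. The lowest in both batches was mt-Nd6, the only messenger RNA of the minus strand, at 3.54 and 4.32. mt-Atp8 followed in Batch 1 with 3.99, against 8.64 in Batch 2, and mt-Nd4l followed in Batch 2 with 6.45, against 4.78 in Batch 1, but its UMIs are shared with an identical nuclear copy, and with that copy its levels were 11.3 and 14.7. On the same scale mt-Rnr2 moved from 16.3, within the range of the messenger RNAs, to 368.7.

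Transfer RNA was counted rarely. mt-Td was the most counted in both batches, with 2251 of 3088 transfer RNA UMIs in Batch 1 and 3066 of 8606 in Batch 2, and it differed in the other direction from the ribosomal RNAs. Its level was 5.08 UMIs per 10000 in Batch 1 and 1.32 in Batch 2, a ratio of 0.26, and the lineage values of 4.45 to 5.85 in Batch 1 did not overlap those of 1.03 to 1.44 in Batch 2. mt-Ty had a ratio of 0.48 from 100 and 250 UMIs. mt-Tc, the transfer RNA for cysteine, had a ratio of 2.01 from 28 and 295 UMIs. mt-Tv was counted 3 times in Batch 1 and 384 times in Batch 2, a ratio of 24.4 with a 95% counting interval of 8.29 to 119. It adjoins both ribosomal genes, and over all cells the interval held the ratio of mt-Rnr2 and lay above that of mt-Rnr1. With 3 UMIs in Batch 1, no link to either is read from this.

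Among the 27 members with at least 20 UMIs in each batch, 4 were at least 2-fold higher in Batch 2 (mt-Rnr2, mt-Rnr1, mt-Atp8 and mt-Tc) and 2 at least 2-fold lower (mt-Td and mt-Ty). Of all 11949 genes with as many UMIs, 5.07% were at least 2-fold higher and 10.6% at least 2-fold lower. The median ratio was 1.18 over the members and 0.92 over all genes, so the members as a group were not set apart in the way that mt-Rnr2 was. Within lineages, mt-Rnr2 and mt-Rnr1 were at least 2-fold higher and mt-Td at least 2-fold lower in all 4, with mt-Atp8 higher in 3 and mt-Nd5 higher and mt-Ty lower in endothelial-like cells. Of all genes as deeply counted, the share at least 2-fold higher was 4.58% in epithelial-like, 2.81% in endothelial-like, 5.02% in mesenchymal-like and 3.91% in immune-like cells, and the share at least 2-fold lower was 6.12%, 6.96%, 8.98% and 12.5%. Hemoglobin and other erythroid markers also differed between the batches, with 351.5 to 464.0 UMIs per 10000 in the 4 lineages of Batch 1 and 40.6 to 99.5 in those of Batch 2, and their part in the mt- values was not tested.

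**Figure D2:**
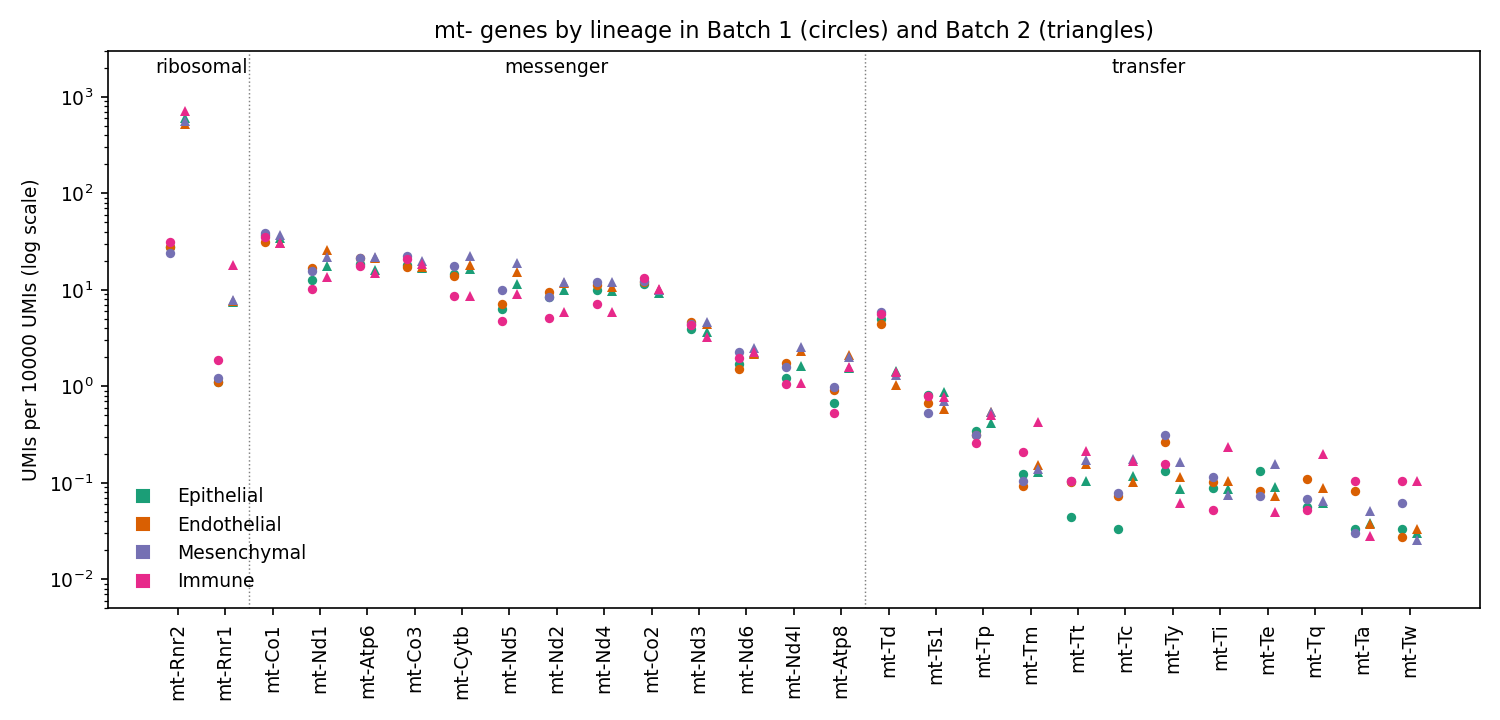
UMIs per 10000 UMIs on a log scale for the 27 members with at least 20 UMIs in each batch, ordered by class and by level in Batch 2. Circles are Batch 1, triangles are Batch 2 and colours are lineages (values of 0 are not drawn). Circles and triangles lie side by side for nearly all messenger RNAs, and stand apart for mt-Rnr2, mt-Rnr1 and, in the other direction, mt-Td.

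In single cells the batches scarcely overlapped in mt-Rnr2. It made up a median of 0.193% of a cell's UMIs in Batch 1, with 0.767% at the 95th percentile, and 41 of 7555 Batch 2 cells (0.543%) were at or under that value. The median in Batch 2 was 5.19%, and the 5th and 95th percentiles were 1.63% and 14.6%. The messenger RNAs together had medians of 1.46% in Batch 1 and 1.58% in Batch 2, with 0.606% to 2.78% and 0.714% to 3.20% between the same percentiles, which overlapped over most of their range.

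Levels of mt- messenger RNA ranged widely among cell types, in a like order in both mice. In 11 cell types named from their markers in both batches, messenger RNA ran from 73.4 UMIs per 10000 in erythroid-like cells to 232.6 in B lymphocyte-like cells in Batch 1, and from 59.1 in erythroid-like cells to 235.6 in pericyte-like cells in Batch 2. B lymphocyte-like cells had 232.6 and 231.9 in the 2 batches, pericyte-like cells 211.9 and 235.6, matrix fibroblast-like cells 168.0 and 174.8, AT2-like cells 146.2 and 143.3, and macrophage-like cells 124.7 and 119.6. The macrophage-like cells were not alike in both batches, as the 20 cells of Batch 1 were led by C1qc, C1qa and C1qb, and of the 506 in Batch 2 a cluster of 69 led by the same genes had 145.9, while those of 380 and 57 cells had 121.2 and 76.0. Of the 11 types, 10 lay within 1.25-fold between the batches, the exception being AT1-like cells at 127.0 and 165.1. This count leaves a cluster led by cardiac muscle genes out of the smooth muscle or myofibroblast-like type, which had 164.0 and 180.1, and with that cluster the type had 225.1 in Batch 2 and 9 of 11 types lay within 1.25-fold. Over the 11 types the messenger levels had Pearson's r = 0.96 and Spearman's rho = 0.96 between the batches, and the ribosomal levels r = 0.48 and rho = 0.40, both as descriptions over types that share a library within each batch. The ribosomal ratio of Batch 2 to Batch 1 ran from 11.6 in lymphatic endothelial-like cells (19 and 35 cells) to 29.6 in mesothelial-like cells (20 and 18 cells). The erythroid-like cluster of Batch 1 also held 10 detected mesenchymal markers, and that of Batch 2 held 13 detected endothelial markers.

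Clusters at the ends of the range were led by genes of specialised cells. In Batch 1 the epithelial-like cluster led by Scgb3a2, Dynlrb2 and Foxj1, genes of secretory and ciliated airway cells, had the most messenger RNA, with 262.2 UMIs per 10000 in 13 cells. In Batch 2 the cluster of 70 cells led by Lrriq1, Dynlrb2 and Ccdc153, of which the latter pair were also among the leading genes in Batch 1, had 257.3. The other airway clusters of Batch 2 had 240.9 in 55 cells led by Scgb3a2 and 164.1 in 59 cells led by Scgb1a1. The cluster of 59 cells also had Dynlrb2 and Foxj1 among its leading genes, and lay near the 160.9 of all Batch 2 cells. The highest value of Batch 2 was 296.5 in a mesenchymal-like cluster of 117 cells led by Tnnt2, Myl7 and Acta2, genes of cardiac and smooth muscle, which was counted with the mesenchymal-like lineage although its leading genes go against that name. Without it the counts of members called in the tests of lineages given further on were the same in each lineage. The lowest values among clusters of the 4 lineages were in neutrophil-like cells, with 55.1 and 60.4 in 2 clusters of Batch 2, and with 97.7 in the cluster led by S100a8 in Batch 1.

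**Figure D3:**
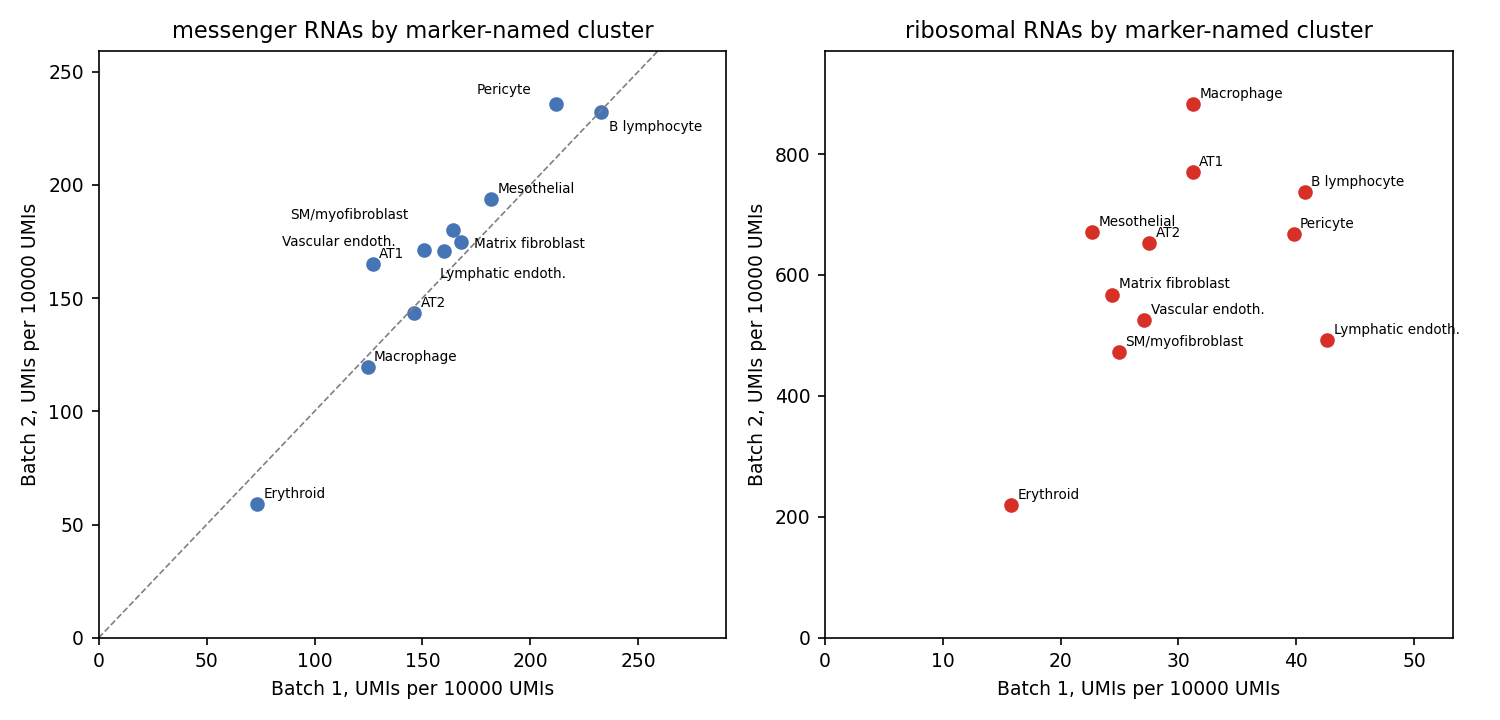
Messenger RNAs (left) and ribosomal RNAs (right) of the mitochondrial genome in the 11 cell types named from markers in both batches, as UMIs per 10000 UMIs in Batch 1 (x axis) and Batch 2 (y axis), with 1 point a type. Messenger levels lie along the dashed line of equal levels (r = 0.96), whereas ribosomal levels spread widely (r = 0.48) on axes of different range.

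Lineages were then compared with edgeR on UMIs summed per lineage and batch, each lineage against the mean of the other 3, with the mouse as a block and Benjamini-Hochberg adjustment over 12345 genes. Of the 37 members 28 passed the filter on low counts. In the immune-like lineage 5 of 28 were higher (17.9%) and 6 lower (21.4%), beside 15.4% and 14% of all genes. The 6 lower members were all messenger RNAs, and the higher members were both ribosomal RNAs and the transfer RNAs mt-Tm, mt-Tq and mt-Tw. The median log2 difference over the 28 members was 0.08, and over all genes -0.14.

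mt-Cytb, which encodes cytochrome b of complex III, gave 8.56 and 8.67 UMIs per 10000 in the immune-like cells of Batch 1 and Batch 2. In the other lineages it gave 13.9 to 17.7 in Batch 1 and 16.6 to 22.2 in Batch 2. The immune-like values lay below all others in these sums, which the test also used. The log2 difference was -0.93 (SE 0.13, edgeR adjusted p = 0.00031). It was also called with each of 10 other settings, with edgeR or DESeq2 adjusted p of at most 0.0299.

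Of the 7 subunits of complex I encoded here, 5 were lower in the immune-like lineage by edgeR. mt-Nd2 gave 5.07 and 5.95 UMIs per 10000 against 8.41 to 9.51 and 9.99 to 12.0 in the other lineages (log2 difference -0.80, SE 0.14, adjusted p = 0.00142). mt-Nd4 gave 7.21 and 5.92 against 9.83 to 12.0 and 9.63 to 12.1 (-0.69, SE 0.14, adjusted p = 0.00301). mt-Nd1, at 10.1 and 13.5, mt-Nd5, at 4.75 and 8.94, and mt-Nd4l, at 1.04 and 1.09, were lower by -0.57, -0.66 and -0.74 on the log2 scale. mt-Nd5 and mt-Nd4l were each called with 6 of 10 other settings. The mt-Nd4l value of Batch 1 rests on 20 immune-like UMIs, and its UMIs are shared with an identical nuclear copy. The immune-like lineage had the lowest value of all 5 genes in both batches. This rank adds no support to the calls, since the test used the same sums. mt-Nd3 and mt-Nd6 were not called, nor were the 3 subunits of cytochrome c oxidase and the 2 of ATP synthase. mt-Co1 gave 35.2 and 30.8 in immune-like cells, within the range of the other lineages (31.2 to 38.9 and 30.3 to 37.1).

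mt-Rnr1 was the most raised of the immune-like members with over 100 UMIs. It gave 1.88 and 18.0 UMIs per 10000 against 1.11 to 1.23 and 7.49 to 7.76 in the other lineages (log2 difference 1.10, SE 0.17, edgeR adjusted p = 0.00053). mt-Rnr2 was higher by 0.34 (SE 0.08, edgeR adjusted p = 0.00618), and not with DESeq2 (adjusted p = 0.116). mt-Tm gave 0.209 and 0.428 UMIs per 10000 against 0.0922 to 0.122 and 0.131 to 0.154 (1.57, SE 0.30, edgeR adjusted p = 0.00213) and was called with all 10 other settings. Its Batch 1 value rests on only 4 immune-like UMIs. mt-Tq and mt-Tw, with log2 differences of 1.29 and 1.76, rest on 1 and 2 immune-like UMIs in Batch 1, and from Batch 1 alone the difference of mt-Tq was -0.50.

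The immune-like counts depended on the neutrophil-led clusters. Leaving out the immune-like clusters led by neutrophil genes removed 71 cells of Batch 1 and 96 of Batch 2. Of 28 members 1 was then lower in the immune-like lineage (3.57%), namely mt-Cytb (log2 difference -0.69, edgeR adjusted p = 0.0299). The 4 higher members (14.3%) were mt-Rnr1, mt-Tm, mt-Tq and mt-Tw. Of all 12201 genes tested, 1582 were lower and 1477 higher. The other 5 messenger RNAs kept negative differences of -0.29 to -0.59 with edgeR adjusted p from 0.0614 to 0.379. This setting leaves 46 immune-like cells in Batch 1 and was chosen after the values were seen.

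The other lineages differed less. In epithelial-like cells edgeR called 4 of 28 members higher and 0 lower, with 5 at an unadjusted p under 0.05 and none called with DESeq2, beside 21.4% and 15.6% of all genes. They were mt-Cytb (log2 difference 0.38), mt-Co1 (0.31), mt-Rnr2 (0.24) and the serine transfer RNA mt-Ts1 (0.55). In endothelial-like cells 1 was higher and 4 were lower, beside 15.9% and 13.7%: mt-Nd1 was higher by 0.35, and mt-Co1, mt-Rnr1, mt-Rnr2 and mt-Td had differences of -0.35, -0.52, -0.27 and -0.51. In mesenchymal-like cells 2 were higher and 1 lower, beside 16.5% and 14.3%: mt-Nd5 by 0.58 and mt-Cytb by 0.50, with mt-Rnr2 at -0.32. The shares of members called were thus under those of all genes, except for the 4 lower members of the endothelial-like lineage (14.3%), which lay near the 13.7% of all genes. All 12 of these calls were lost without the neutrophil-led clusters, where edgeR called 0 members in each of the 3 lineages, with 1, 2 and 4 at an unadjusted p under 0.05. The log2 differences themselves changed little, at 0.78 to 1.13 times those given (median 0.96). The calls were also lost without the mouse as a block, where 0, 1 and 1 had an unadjusted p under 0.05, with log2 differences of 0.90 to 1.42 times those given (median 0.99). mt-Nd5 gave 9.88 and 18.8 UMIs per 10000 in mesenchymal-like cells, the highest of the 4 lineages in both batches of the sums tested.

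**Figure D4:**
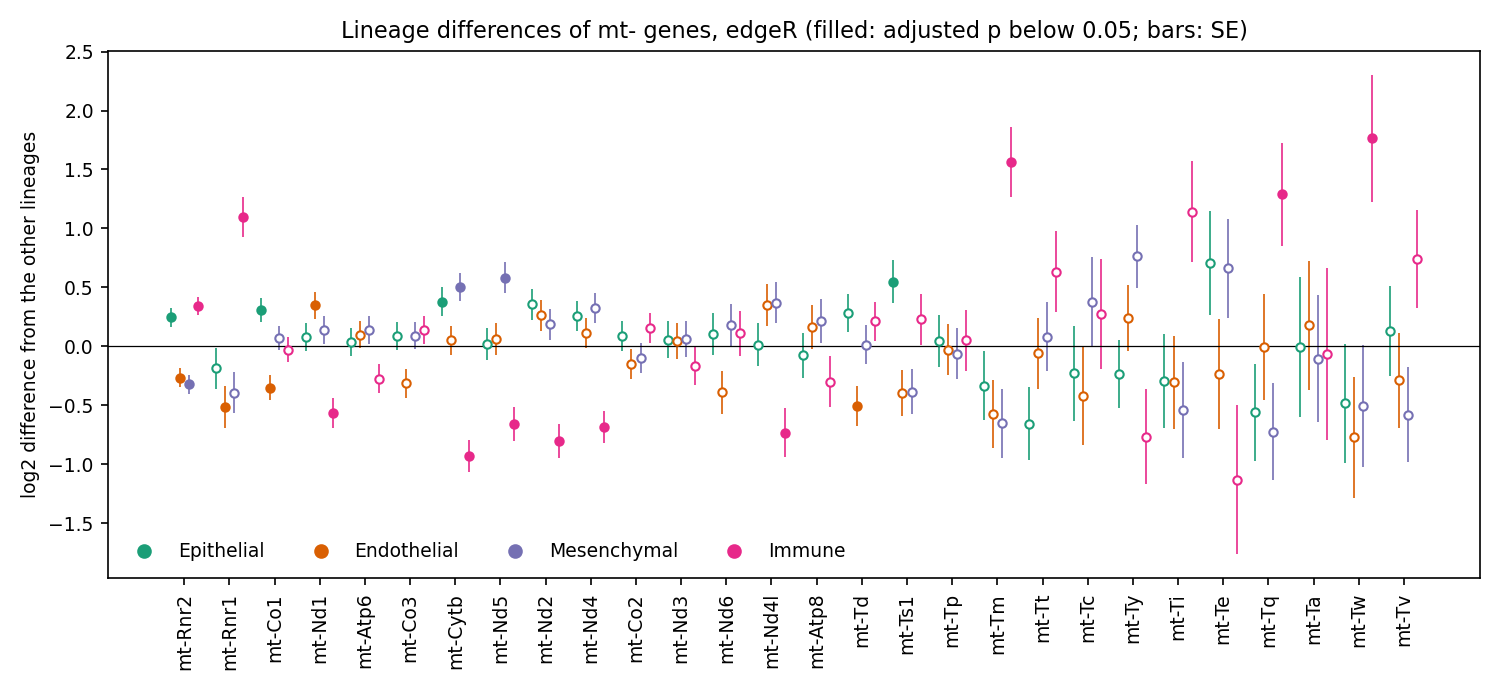
Log2 difference of each of 28 members in each lineage (colours) from the mean of the other 3, from edgeR on sums of 2 batches, with bars of 1 SE. Filled points passed an adjusted p of 0.05; the filled immune-like points lie below 0 for 6 messenger RNAs and above 0 for both ribosomal and 3 transfer RNAs.

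Nuclear genes make most respiratory chain subunits and all proteins of the mitochondrial ribosome. Of 80 nuclear subunits of the respiratory chain and ATP synthase that were tested, 11 were higher and 0 lower in the immune-like lineage by edgeR, with a median log2 difference of 0.14 against -0.14 over all genes. The 11 genes were 13.8% of the list, beside 15.4% of all genes higher in that lineage. The shares called in this list and in the other nuclear lists given next were under those of all genes in every lineage and direction, so the counts do not set the lists apart. The lowest adjusted p were those of Uqcrq of complex III (0.84, adjusted p = 0.00274) and Ndufb7 of complex I (0.84, adjusted p = 0.00389). Without the clusters led by neutrophil genes edgeR called 0 of the 80, with 8 at an unadjusted p under 0.05 and a median of 0.05, and without the mouse as a block it called 2 higher. In the other lineages 6 were higher and 0 lower (epithelial-like), 2 and 7 (endothelial-like), and 3 and 7 (mesenchymal-like). The cytochrome c oxidase isoforms Cox6a2 in epithelial-like cells (4.81, adjusted p = 2.02e-05) and Cox4i2 in mesenchymal-like cells (4.12, adjusted p = 5.51e-05) had far larger differences by edgeR. Of 76 mitochondrial ribosomal proteins 6 were higher (7.89%, beside 15.4%) and 0 lower in immune-like cells, among them Mrpl33 (0.89) and Mrps21 (0.88), or 2 and 0 without the clusters led by neutrophil genes, while 3 were higher (3.95%, beside 21.4%) and 7 lower (9.21%, beside 15.6%) in epithelial-like cells, led by Mrpl14 (1.66) and Mrpl15 (-0.90). In the endothelial-like lineage 2 were higher and 5 lower, and in the mesenchymal-like lineage 2 and 2.

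Of 30 tested genes that act in mitochondrial transcription, RNA processing and their control, 4 were higher (13.3%, beside 21.4% of all genes) and 3 lower (beside 15.6%) in epithelial-like cells by edgeR. The lowest adjusted p was that of Ppargc1a, a coactivator known for driving mitochondrial biogenesis, with a log2 difference of 3.72 (SE 0.42, adjusted p = 3.19e-05). Hsd17b10, a subunit of mitochondrial RNase P, followed at 0.88 (SE 0.18, adjusted p = 0.00265). In immune-like cells 2 were higher and 2 lower, and the lower pair were the same genes, Hsd17b10 (-0.92) and Ppargc1a (-3.42). In the endothelial-like lineage edgeR called 0 of 30, with 2 at an unadjusted p under 0.05, and DESeq2 called 0, and in the mesenchymal-like lineage 3 were higher and 1 lower.

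The study's limit of 10% mt- UMIs was exceeded by 1940 cells of Batch 2 and 1 of Batch 1. By the 13 messenger RNAs alone 3 cells of Batch 2 would exceed it, and without mt-Rnr2 9 would, whereas mt-Rnr2 alone exceeded 10% of UMIs in 1155. The Batch 1 cell exceeded the limit on messenger RNA. Since the split uses the sum over members, the levels of members on either side are a description. The shares within mt- UMIs are not independent of the split either, as mt-Rnr2 made up 77.1% of that sum in Batch 2. In the cells above the limit ribosomal RNA filled 84.8% of mt- UMIs (exact binomial 95% interval 84.7% to 84.9%), messenger RNA 14.8% and transfer RNA 0.368%. In the 5615 cells at or below it the shares were 73.8% (73.7% to 73.9%), 25.6% and 0.571%. Just inside the limit, in 227 cells with 9.5% to 10%, ribosomal RNA filled 81.6%, and just outside, in 183 cells with 10% to 10.5%, it filled 82.3%.

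The shift in composition, which is not independent of the split, was present in each lineage. Messenger RNA filled 13.7% of mt- UMIs above and 23.8% below the limit in epithelial-like cells, 17.0% and 28.0% in endothelial-like, 19.0% and 28.6% in mesenchymal-like, and 9.56% and 20.8% in immune-like cells. Immune-like cells on the 2 sides were of different make-up, with 213 of 283 macrophage-like above and 293 of 526 below, and 5 neutrophil-like above and 91 below. Within the macrophage-like cells messenger RNA filled 8.46% above and 18.1% below. Their make-up differed as well, since clusters of 380, 69 and 57 cells had 46.1%, 33.3% and 26.3% of cells above. By lineage the share of cells above the limit was 31.1% in epithelial-like, 21.3% in endothelial-like, 20.9% in mesenchymal-like and 35.0% in immune-like cells. Of 42 erythroid-like cells 0 exceeded it (exact binomial 95% upper limit 8.41%). Median UMIs were 1957 above and 2014 below over all cells, and 2817 and 3567 in epithelial-like cells, where the gap was widest.

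Relative to nuclear UMIs every one of the 27 members with at least 20 UMIs in each batch was higher above the limit, by 1.32 to 3.35 times, as the choice of cells leads it to be. The ribosomal RNAs had ratios of 3.35 for mt-Rnr1 and 3.07 for mt-Rnr2. Among messenger RNAs the ratios ran from 1.32 for mt-Co3 to 2.53 for mt-Nd6, with mt-Nd4l at 2.01. In all 28 members with at least 20 UMIs on both sides, 8 were at least 2-fold higher and 0 at least 2-fold lower, beside 1.91% and 0.602% of all genes, from which nothing is read because the limit used these counts.

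Within messenger RNA, whose make-up the limit did not use directly, mt-Nd6 and mt-Nd5 took a larger part above the limit. mt-Nd6 made up 1.93% of messenger UMIs above and 1.18% below over all cells, a ratio of 1.63, and the ratio was 1.54 to 2.35 in the 4 lineages. mt-Nd5 made up 10.8% and 7.58%, a ratio of 1.43, with 1.23 to 1.54 in the lineages. mt-Co3 ran the other way, with 9.79% and 11.5%, a ratio of 0.86 and 0.79 to 0.91 in the lineages. The genes mt-Nd5 and mt-Nd6 overlap by 14 bases on opposite strands. Minus strand genes gave 2.89% of mt- UMIs other than mt-Rnr2 above the limit and 2.02% below it, and 2.09% in Batch 1. These are values of 1 mouse with no replicate.

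**Figure D5:**
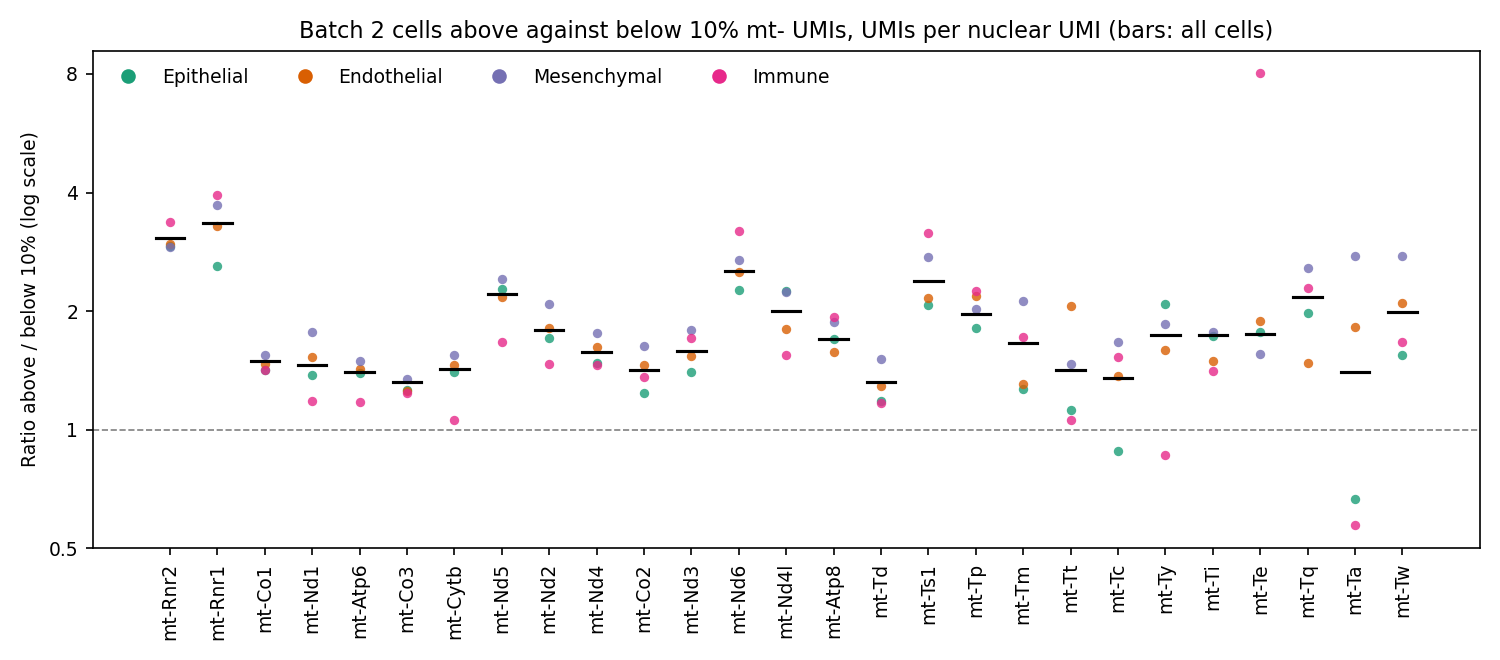
Ratio of UMIs per nuclear UMI in Batch 2 cells above against at or below 10% mt- UMIs, on a log scale, for the 27 members with at least 20 UMIs in each batch. Black bars are all cells and points are lineages; mt-Rnr1 (3.35) and mt-Rnr2 (3.07) have the highest bars, and mt-Nd6 (2.53) the highest of the messenger RNAs.

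Some counts are uncertain because nuclear pseudogenes carry near-identical copies. At 95% identity or more over 100 bases or more, 9 messenger RNAs matched annotated nuclear pseudogenes: mt-Atp6, mt-Co1, mt-Co2, mt-Co3, mt-Nd2, mt-Nd3, mt-Nd4, mt-Nd4l and, in part and at 95.2%, mt-Nd5. Of the copies, Gm10222 and Gm4076 have rows in the files. Gm10222 is identical to mt-Nd4l over 294 bases and held 863 UMIs in Batch 1 and 5725 in Batch 2, or 57.8% and 56.2% of the UMIs of the pair. Gm4076 held 554 and 3281 UMIs beside 3364 and 31684 for mt-Nd5, or 14.1% and 9.38% of the pair. The aligner kept a single hit per read, so levels of these members may be too low, and the files cannot tell the copies apart. No such copy was found among the annotated nuclear transcripts for mt-Rnr1, mt-Rnr2, mt-Nd1, mt-Cytb, mt-Nd6 or mt-Atp8. The transfer RNAs, at 59 to 75 bases, are shorter than the 100 bases required, so the search could not find copies of them. mt-Atp8 and mt-Atp6 share 43 bases on the same strand.

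The 10 members with under 20 UMIs in a batch were transfer RNAs, with 36 UMIs in Batch 1 and 629 in Batch 2 in all. They were mt-Tv (3 and 384 UMIs), mt-Tl1 (5 and 59), mt-Tk (11 and 57), mt-Tn (4 and 34), mt-Tg (7 and 26), mt-Ts2 (0 and 23), mt-Tl2 (2 and 17), mt-Tf (1 and 16), mt-Th (3 and 7) and mt-Tr (0 and 6). A count of 0 in Batch 1 allows up to 3 UMIs in that batch, and no fold is given for mt-Ts2 and mt-Tr.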

How the data were processed

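Whole lungs of 2 newborn mice were profiled by Drop-seq, 1 mouse a batch. The authors aligned reads to mm10 with Bowtie2 2.2.7, keeping a single hit per read, and deposited UMI counts per gene and cell over exons, without normalization. Use of strand in counting is not given in the sources used here. Every deposited cell has at least 500 genes, and all 9944 were kept. Doublets were not removed, and an alternative leaves out cells with at least 2 UMIs of the markers of each of 2 lineages. A single hit per read can split counts between a gene and its copies.

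Cells were clustered per batch without mt- genes (2000 variable genes, 30 components, 20 neighbours, leidenalg 0.10.2 at resolution 2.5). Counts were summed per lineage and batch (8 sums of 191499 to 10335056 UMIs) and tested with edgeR 4.0.16 (quasi-likelihood, TMM, filterByExpr, Benjamini-Hochberg over 12345 genes) with the mouse as a block. The lineage sums of a batch come from the same animal, and their deviations from the lineage means correlated between lineages at 0.144 to 0.387. With 1 mouse a batch, p-values rest on the spread left after lineage and mouse are fitted, over 2 animals. On simulated data for the epithelial-like comparison (11558 genes), 50% of 2-fold and 94% of 4-fold changes were recovered, with 7 false calls. Simulated batch effects were alike in every lineage and all genes had a single spread, so these rates need not hold for the members. Alternatives were no block, DESeq2 1.42.0, other filters, scaling, cells, lineages and thinning to 500 UMIs. Intervals are exact binomial or Poisson and cover counting error only.

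Members and gene lists were chosen with earlier results of these data known. Members with at least 20 UMIs in each batch are named with values and the others with counts. Of nuclear lists, up to 2 genes per direction and comparison are named, by lowest adjusted p. Gene positions, lengths and sequences are from GENCODE vM21. The study's cell lists were held in part, so lineages were rebuilt, and differences from the study may come from that.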

Additional observations from a re-analysis of the deposited data

How the results depend on the processing

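Without the mouse as a block, edgeR called 2938 genes in the epithelial-like, 2200 in the endothelial-like, 2411 in the mesenchymal-like and 2246 in the immune-like comparison, and 0, 0, 0 and 3 members. The pairing by animal therefore bears on these calls, and 3 of 23 called member values stayed called without it. Thinned to 500 UMIs, 2408, 2203, 2332 and 2076 genes were called, with fewer genes tested. DESeq2 called 0 epithelial-like and 2 endothelial-like members, and 13 of the 23 stayed called. Members called in the endothelial-like comparison were also 2 with no count filter, 2 in cells at or below 10% mt- UMIs, and 2 without cells holding markers of 2 lineages, a rule that left 6 in the immune-like comparison and removed 7.79% to 60.1% of a lineage's cells. Without neutrophil-led clusters, a setting added after seeing the data, 0, 0, 0 and 5 members were called, beside 4222, 3232, 3430 and 3059 genes. From Batch 1 alone, without replicate 2, the immune-like difference of mt-Tq was -0.50, and from Batch 2 alone it was 1.59. The ribosomal share of mt- UMIs in Batch 2 cells above and below the limit was 80.6% and 65.0% at a limit of 5%, 86.1% and 77.7% at 20%, 83.6% and 71.4% as a mean over cells, and 83.9% and 73.5% after thinning. The mt-Rnr2 ratio of Batch 2 to Batch 1 was 16.3 in cells at or below 10%, 24.1 per nuclear UMI and 17.0 with both, and the messenger ratio 0.991 and 1.14 in the first pair of these settings, all added after seeing the data. Where no value shows it, the cause was not tested. Depth limits the transfer RNAs and the immune-like cells of Batch 1.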
